A study of Mus musculus with 9 samples.

Results

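The TRIM genes of mouse dendritic cells were followed across a response to DNA delivered into the cells. A gene was counted as a member when a probe set's only annotated symbol was Trim followed by a number and at most 1 letter. This gave 58 genes, represented by 111 probe sets, of 18193 genes that had a probe set with 1 symbol. Of the 58 genes, 39 passed a filter on low signals and were tested, among 12586 genes tested in all.

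The study used Affymetrix expression arrays on bone marrow derived dendritic cells (BMDCs) of 129/SvEv background, grown from marrow with GM-CSF for 9 to 12 days. The 3 groups held 3 arrays each. STING tumor DNA samples were STING knockout cells given purified DNA of tumor cells with Lipofectamine for 7 h, WT tumor DNA samples were wild-type cells given the same, and WT media samples were unstimulated wild-type cells. STING, encoded by Sting1, is the adaptor that relays detection of DNA in the cytosol to the induction of type I interferon. Neither unstimulated knockout cells nor cells treated with Lipofectamine without DNA were analysed here. The DNA and its carrier therefore cannot be told apart, nor can the resting state of the knockout cells be read. The labels do not say whether the 3 samples of a group came from separate mice or cultures, so the p-values describe the spread from sample to sample, and this may be technical. A lower signal in a culture can stand for fewer cells that make an RNA or for less RNA per cell, and these cannot be told apart.

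TRIM proteins share a RING finger, a B-box and a coiled coil, and most act as ubiquitin ligases whose target is chosen by the domain at the carboxyl end. Many carry a PRY-SPRY domain there, a surface that binds other proteins. Several are induced by interferon, and members of the family tune RNA and DNA sensing, bind retroviral capsids or, in the nucleus, silence genes.

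Sting1 itself had signals of 246, 336 and 327 in STING tumor DNA samples, 2258, 1061 and 1158 in WT tumor DNA samples, and 1524, 1081 and 646 in WT media samples. The knockout values lay below all those of wild-type cells. The difference was -2.17 ± 0.35 (log2, SE) for STING tumor DNA minus WT tumor DNA, with a limma adjusted p of 0.00163. Against WT media it was -1.72 ± 0.35, with a limma adjusted p of 0.0938, or 0.0319 with the replicate number as a block. Summed signals of 7 dendritic cell markers (Itgax, Cd74, H2-Aa, Flt3, Zbtb46, Ccr7 and Cd86) were 49082 to 60488 in STING tumor DNA, 71802 to 91899 in WT tumor DNA and 54972 to 61255 in WT media samples, although Flt3 did not pass the filter. The sums include Cd86, with mean signals of 4369, 15774 and 2573 in these groups, in that order. Mean signals of Itgax were 5636, 6051 and 5085. The sums were therefore not read as numbers of dendritic cells. Sums for 4 T cell markers were 75.7 to 132 over all 9 arrays, and those of 3 erythroid markers at most 66.7, with none of the 3 passing the filter.

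Between WT tumor DNA and WT media, TRIM members were called in both directions. Called higher in WT tumor DNA than in WT media were 6 of the 39 tested members, Trim14, Trim21, Trim25, Trim26, Trim30a and Trim30d, and called lower were 9, Trim8, Trim24, Trim27, Trim28, Trim37, Trim44, Trim45, Trim47 and Trim65. The 15 called members are 38.5% of those tested, beside 33.6% of all genes tested, where a call is a limma adjusted p below 0.05. By direction, 15.4% of the tested members were called higher, beside 9.94% of all genes, and 23.1% were called lower, beside 23.6%. The 3 values of the groups did not overlap, called or not, for 8 members that were higher and 13 that were lower with DNA. Of all genes, 46.4% had such values apart, 15% higher and 31.4% lower. The median member differed by -0.28 and the median gene by -0.20 (log2, WT tumor DNA minus WT media). Centring each array on the median of the genes tested, an alternative chosen after seeing the data, changed the split to 9 members higher and 6 lower, and that of all genes to 2759 higher and 1080 lower, against 1251 higher and 2973 lower without it.

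Knockout cells given DNA stood apart from wild-type cells given DNA in 19 of the 39 members. Called lower in STING tumor DNA than in WT tumor DNA were 8 members, Trim12c, Trim14, Trim21, Trim25, Trim26, Trim30a, Trim30d and Trim34a, the last by its leading probe set, which its other probe set opposes. Called higher were 11, Trim5, Trim8, Trim11, Trim12a, Trim16, Trim27, Trim28, Trim37, Trim44, Trim45 and Trim47. These are 48.7% of the members, beside 31.5% of all genes tested. By direction, 20.5% of the members were called lower, beside 9.73% of all genes, and 28.2% higher, beside 21.8%. Trim5 and Trim12a passed the filter only through their knockout signals and so had to differ. Without these and Trim34a, 7 of 36 members were called lower (19.4%) and 9 higher (25%), a set of counts added after seeing the data. Values lay apart without overlap for 8 members that were lower and 14 that were higher in the knockout, and for 46% of all genes, 14.7% lower and 31.3% higher. The median member differed by 0.28 and the median gene by 0.20 (log2, STING tumor DNA minus WT tumor DNA). With the added centring 6 members were called higher and 8 lower, and of all genes 1092 were called higher and 2492 lower, against 2746 and 1224 without it. With the replicate number as a block, 11 members were called higher and 8 lower, beside 3769 and 1638 of all genes.

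Knockout cells given DNA differed from unstimulated wild-type cells in 3 members. Trim5 and Trim12a were called higher and Trim34a lower, which is 7.69% of the members, beside 0.429% of all genes tested. Of all genes, 0.167% were called higher and 0.262% lower. Without these 3 members, for the reasons given above, limma called 0 of the other 36, and at an unadjusted p below 0.05 Trim16 was higher and Trim12c lower. Values lay apart for 4 members higher and 3 lower, beside 13.8% of all genes, 5.93% higher and 7.88% lower. The median member differed by -0.08 and the median gene by -0.01. Each comparison shares an array group with the next, so a member's values in the 3 comparisons are not independent of each other. The plot of differences for the 39 members shows all 3 comparisons side by side.

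**Figure D1:**
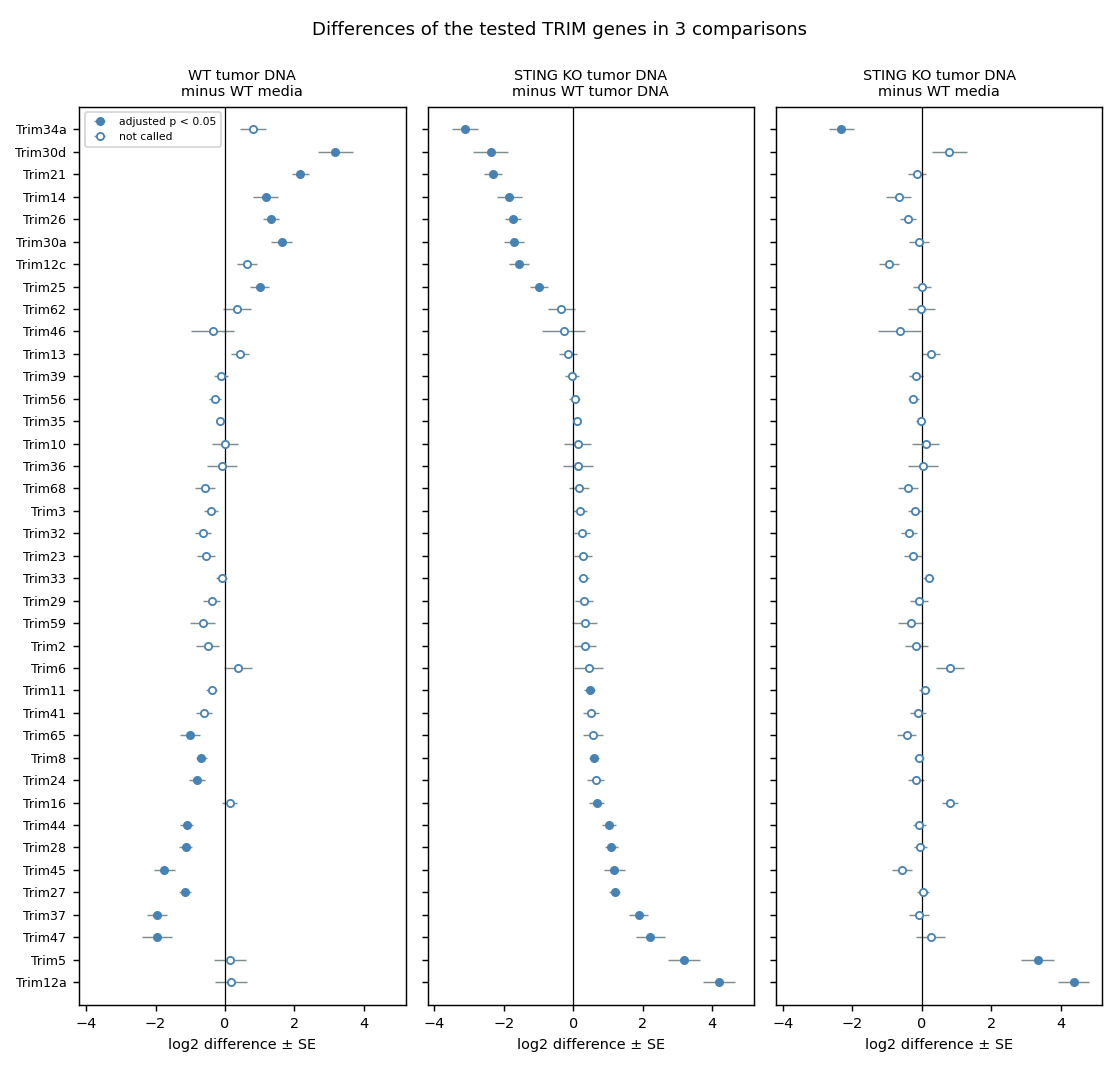
Differences of the 39 tested TRIM genes (log2 of signal + 16, points, with SE as bars) for WT tumor DNA minus WT media, STING tumor DNA minus WT tumor DNA, and STING tumor DNA minus WT media; filled points have a limma adjusted p below 0.05. In the right panel only Trim34a, Trim5 and Trim12a are filled, at -2.31, 3.33 and 4.37.

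The 6 members that rose with DNA in wild-type cells and were lower in the knockout all belong to the PRY-SPRY class. They are 6 of the 22 tested members of that class (27.3%), of which 3 more were called lower with DNA. Trim21, Trim30a and Trim30d lie in a run on chromosome 7, described below. Outside that run, 3 of 13 tested members of the class were called higher (23.1%) and 3 lower. None of the 17 tested members of the other domain classes was called higher with DNA by limma, beside 9.94% of all genes, and 0 of the 17 were higher at an unadjusted p below 0.05. A count of 0 of 17 is near that background. The difference between the classes was not tested. Both calls of the 6 members rest on the same WT tumor DNA arrays, so the second is not independent of the first.

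Trim30d, a mouse gene next to its close relative Trim30a, rose most. It had signals of 13048, 9263 and 10892 in WT tumor DNA samples, against 1362, 856 and 1493 in WT media samples, a difference of 3.17 ± 0.51 (log2, SE) with a limma adjusted p of 0.00184. In STING tumor DNA samples the signals were 5228, 920 and 1887, which is -2.38 ± 0.51 against WT tumor DNA (limma adjusted p = 0.0061). The knockout values reached into the range of the media samples and above it, and none reached the lowest of the wild-type cells given DNA.

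Trim21, the cytosolic antibody receptor and ubiquitin ligase also known as Ro52, had the smallest adjusted p of these 6 in both comparisons. Its signals were 1304, 623 and 713 in STING tumor DNA, 4556, 3908 and 4208 in WT tumor DNA, and 1113, 801 and 882 in WT media samples. The WT tumor DNA values stood well clear of both other groups, which overlapped each other. Trim21 differed by 2.17 ± 0.26 for WT tumor DNA minus WT media (limma adjusted p = 0.000512) and by -2.32 ± 0.26 for STING tumor DNA minus WT tumor DNA (limma adjusted p = 0.000301). A further Trim21 probe set gave 2.28 and -2.94 for the same differences.

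Trim30a, reported in mice to restrain signalling to NF-kappaB and to promote loss of STING protein, had the highest signals of the 6. They were 8507, 3487 and 4923 in STING tumor DNA, 15653, 17196 and 18898 in WT tumor DNA, and 4535, 5131 and 7318 in WT media samples. It differed by 1.63 ± 0.29 with DNA in wild-type cells (limma adjusted p = 0.00296) and by -1.70 ± 0.29 in knockout against wild-type cells given DNA (limma adjusted p = 0.00212). As for Trim30d, knockout array 1 was the highest of its group, and no knockout value overlapped the WT tumor DNA values.

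Trim26, a ligase encoded in the major histocompatibility complex region, had signals of 521, 313 and 351 in STING tumor DNA, 1505, 1022 and 1476 in WT tumor DNA, and 568, 449 and 541 in WT media samples. Its differences were 1.32 ± 0.23 for WT tumor DNA minus WT media (limma adjusted p = 0.00273) and -1.73 ± 0.23 for STING tumor DNA minus WT tumor DNA (limma adjusted p = 0.000698). The lowest wild-type value with DNA was above every value of the other groups.

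Trim14, which lacks a RING finger and serves as an adaptor in nucleic acid sensing, had signals of 1769, 655 and 673 in STING tumor DNA, 3627, 3651 and 2825 in WT tumor DNA, and 1954, 1206 and 1360 in WT media samples. It rose by 1.17 ± 0.35 with DNA (limma adjusted p = 0.0286) and was lower in the knockout by -1.84 ± 0.35 (limma adjusted p = 0.00375). The groups given DNA did not overlap. The call for WT tumor DNA against WT media ended when WT tumor DNA array 1 or 2, or WT media array 2 or 3, was left out, and over 9 such fits the difference was 1.03 to 1.37 with limma adjusted p 0.00305 to 0.0895. It ended also with the mean over both probe sets (0.80, limma adjusted p = 0.0691).

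Trim25, a ligase known for its part in RIG-I signalling, had signals of 5110, 3094 and 3454 in STING tumor DNA, 10151, 7639 and 5440 in WT tumor DNA, and 4712, 3516 and 3187 in WT media samples. Its differences were 0.996 ± 0.26 with DNA in wild-type cells (limma adjusted p = 0.0162) and -0.98 ± 0.26 for knockout against wild-type cells given DNA (limma adjusted p = 0.0178). Every WT tumor DNA value was above those of the other groups, though by little for array 3. Leaving out WT tumor DNA array 1 ended both calls, as did WT media array 3 for the first, and knockout array 2 or 3 for the second, with limma adjusted p up to 0.0587 and 0.0672. A dimmer Trim25 probe set differed by 2.75 and -2.19 in these comparisons.

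**Figure D2:**
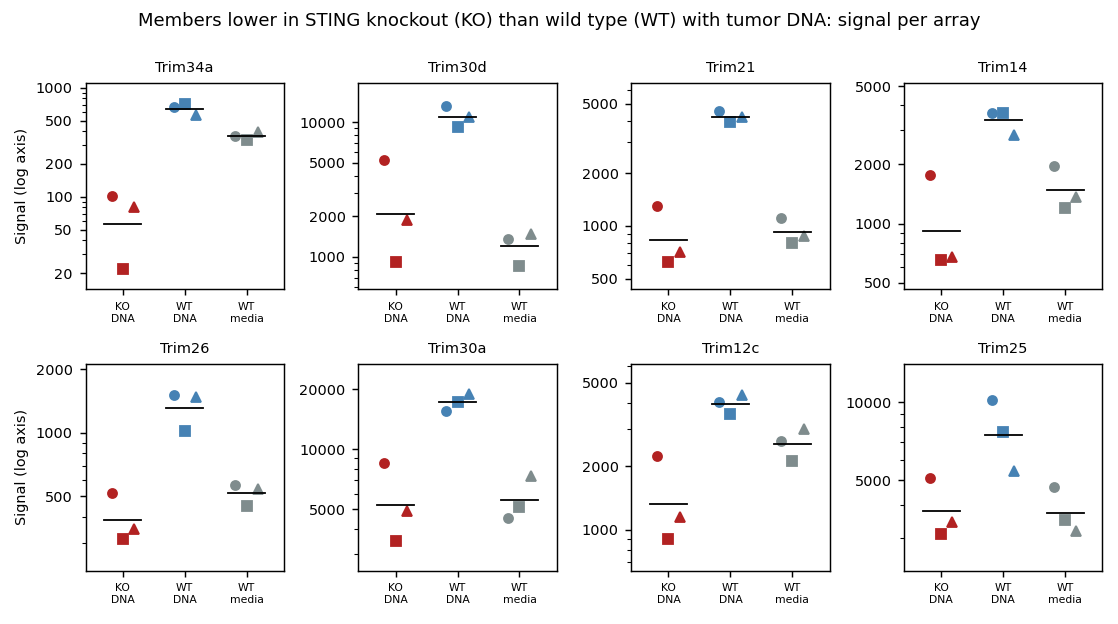
Signal per array (log axis) of the 8 TRIM genes called lower in STING tumor DNA (KO DNA, red) than in WT tumor DNA (WT DNA, blue), with WT media in grey; circles, squares and triangles are arrays numbered 1, 2 and 3, and lines are means of the log2 values. No red point overlaps the blue points in any panel, and the red circle is the highest red point in all 8.

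Trim12c and the leading probe set of Trim34a were also lower in the knockout under DNA, and were not called in WT tumor DNA against WT media. The other Trim34a probe set ran the opposite way. Trim12c, a mouse relative of primate TRIM5 reported to work with the ligase TRAF6, had signals of 2248, 897 and 1148 in STING tumor DNA, 4049, 3537 and 4363 in WT tumor DNA, and 2634, 2119 and 3016 in WT media samples. The knockout minus wild-type difference under DNA was -1.57 ± 0.29 (limma adjusted p = 0.00332). For WT tumor DNA minus WT media it was 0.63 ± 0.29, and although the values did not overlap, the limma adjusted p was 0.129, or 0.0473 with the replicate number as a block. A further probe set of Trim12c gave 1.44 with DNA and -1.67 in the knockout, and the mean over its probe sets gave 1.03 with DNA (limma adjusted p = 0.0248).

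All 8 members that were lower in the knockout under DNA had their highest knockout signal on array 1. So did Trim5 and the leading probe set of Trim12a, which were higher there, and Irf7, Ifih1 and Pml outside the family. Trim27, Trim37 and Trim47 had theirs on array 2. The share of all genes with their highest knockout signal on array 1 was not counted. Within the arrays numbered 1, the knockout minus wild-type difference under DNA was -0.88 for Trim30a and -1.32 for Trim30d, within those numbered 2 it was -2.30 and -3.31, and within those numbered 3 it was -1.94 and -2.52. Sign did not differ between numbers for any called member, in 15 of 15, 19 of 19 and 3 of 3 members called in the 3 comparisons. The values of the groups did not overlap for any of these calls, so the signs had to match and add no support.

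Among the 9 members that fell with DNA, 7 were also called higher in the knockout under DNA than in wild-type cells. Both comparisons use the same WT tumor DNA arrays, and the share of all genes with both calls was not counted. The 7 are therefore not read as a trait of the family. The 9 span several domain classes, with Trim27, Trim47 and Trim65 in the PRY-SPRY class, Trim24 and Trim28 carrying a PHD finger and bromodomain, Trim45 with a filamin repeat, Trim37 with a MATH domain, and Trim8 and Trim44 with no further domain.

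Trim47, a ligase of the PRY-SPRY class, had signals of 181, 245 and 214 in STING tumor DNA, 86.5, 10.6 and 27.2 in WT tumor DNA, and 224, 157 and 152 in WT media samples. WT tumor DNA array 2 was below the offset of 16 added before taking logs. The differences were -1.96 ± 0.43 for WT tumor DNA minus WT media (limma adjusted p = 0.00704) and 2.22 ± 0.43 for STING tumor DNA minus WT tumor DNA (limma adjusted p = 0.0038).

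Trim37, a ligase needed for the import of peroxisomal proteins and mutated in mulibrey nanism, had signals of 402, 444 and 375 in STING tumor DNA, 56.4, 137 and 122 in WT tumor DNA, and 493, 451 and 361 in WT media samples. It fell by 1.96 on the log2 scale with DNA (SE 0.28, limma adjusted p = 0.00109) and was higher in the knockout by 1.88 ± 0.28 (limma adjusted p = 0.00113). Knockout and media samples overlapped, far above the wild-type cells given DNA. Its 4 further probe sets had the same signs, from -1.33 to -0.60 with DNA and from 0.37 to 1.25 in the knockout.

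Trim45 had signals of 106, 113 and 110 in STING tumor DNA, 56.5, 19.6 and 50.9 in WT tumor DNA, and 209, 140 and 169 in WT media samples. The knockout values lay between those of the other groups, without overlap on either side. Its differences were -1.74 ± 0.30 with DNA in wild-type cells (limma adjusted p = 0.00254), 1.17 ± 0.30 for knockout against wild-type cells given DNA (limma adjusted p = 0.0147) and -0.57 ± 0.30 for knockout cells given DNA against WT media (limma adjusted p = 0.743).

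Trim28, also called KAP1, is the corepressor that zinc finger proteins of the KRAB class recruit to silence endogenous retroviruses. Its signals were 2663, 2652 and 2930 in STING tumor DNA, 1046, 1292 and 1536 in WT tumor DNA, and 2826, 2404 and 3311 in WT media samples. Trim28 differed by -1.14 ± 0.18 with DNA in wild-type cells (limma adjusted p = 0.00164) and by 1.10 ± 0.18 for the knockout against wild-type cells given DNA (limma adjusted p = 0.00161). A further probe set gave -1.26 and 1.14.

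Trim27, a nuclear and cytoplasmic ligase first known as the RET finger protein, had signals of 1618, 2191 and 1956 in STING tumor DNA, 715, 954 and 832 in WT tumor DNA, and 1850, 1932 and 1779 in WT media samples. The differences were -1.15 ± 0.16 with DNA (limma adjusted p = 0.00113) and 1.19 ± 0.16 in the knockout under DNA (limma adjusted p = 0.000819). Both Trim27 and Trim28 separated the wild-type cells given DNA from the other 6 arrays without overlap. Of 5 further Trim27 probe sets, 2 gave -1.33 and -0.96 with DNA, and the other 3, of which 1 passed the filter, lay between -0.17 and 0.02.

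Trim44, which has a ubiquitin protease type zinc finger in place of the RING, had signals of 969 to 1456 in STING tumor DNA, 508 to 651 in WT tumor DNA and 1064 to 1416 in WT media samples. Its leading probe set differed by -1.10 ± 0.20 and 1.03 ± 0.20 in the same comparisons (limma adjusted p = 0.00287 and 0.00353). The further Trim44 probe sets did not all share these signs, with 0.41 and -0.54 in one and -0.31 and 0.25 in the other, and the mean over probe sets gave limma adjusted p of 0.0833 and 0.191.

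Trim8, which acts on cytokine signalling through SOCS1 and on NF-kappaB, showed smaller differences. Its signals were 821, 799 and 876 in STING tumor DNA, 485, 597 and 553 in WT tumor DNA, and 798, 951 and 902 in WT media samples, with differences of -0.68 ± 0.15 and 0.60 ± 0.15 (limma adjusted p = 0.00772 and 0.014). Both calls ended with the added centring, at -0.25 and 0.20 (limma adjusted p = 0.211 and 0.316), and with the mean over probe sets. The second ended also without knockout array 3, where the limma adjusted p was 0.0588.

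Trim24 and Trim65 were called lower with DNA and were not called between knockout and wild-type cells given DNA. Trim24, a coregulator of nuclear receptors, had signals of 225, 211 and 195 in STING tumor DNA, 106, 150 and 134 in WT tumor DNA, and 330, 215 and 188 in WT media samples. Its difference with DNA was -0.81 ± 0.24 (limma adjusted p = 0.026), and that in the knockout under DNA was 0.64 ± 0.24 (limma adjusted p = 0.0662). The WT tumor DNA values overlapped neither other group. Further probe sets of Trim24 gave -0.07 and -0.52 with DNA, and the mean over probe sets gave -0.44 (limma adjusted p = 0.326).

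Trim65, reported to ubiquitinate the RNA sensor MDA5, had signals of 102, 146 and 214 in STING tumor DNA, 116, 92.9 and 77.7 in WT tumor DNA, and 223, 166 and 235 in WT media samples. It differed by -1.01 ± 0.28 with DNA (limma adjusted p = 0.0207) and by 0.57 ± 0.28 in the knockout under DNA (limma adjusted p = 0.151), where the values overlapped. Neither call was firm to the scaling, with limma adjusted p for the DNA difference of 0.205 for Trim24 and 0.163 for Trim65 under the added centring. Leaving out WT media array 1 or WT tumor DNA array 3 ended both calls, as did WT tumor DNA array 1 for Trim24 and WT media array 3 for Trim65, with limma adjusted p up to 0.0888 and 0.067.

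**Figure D3:**
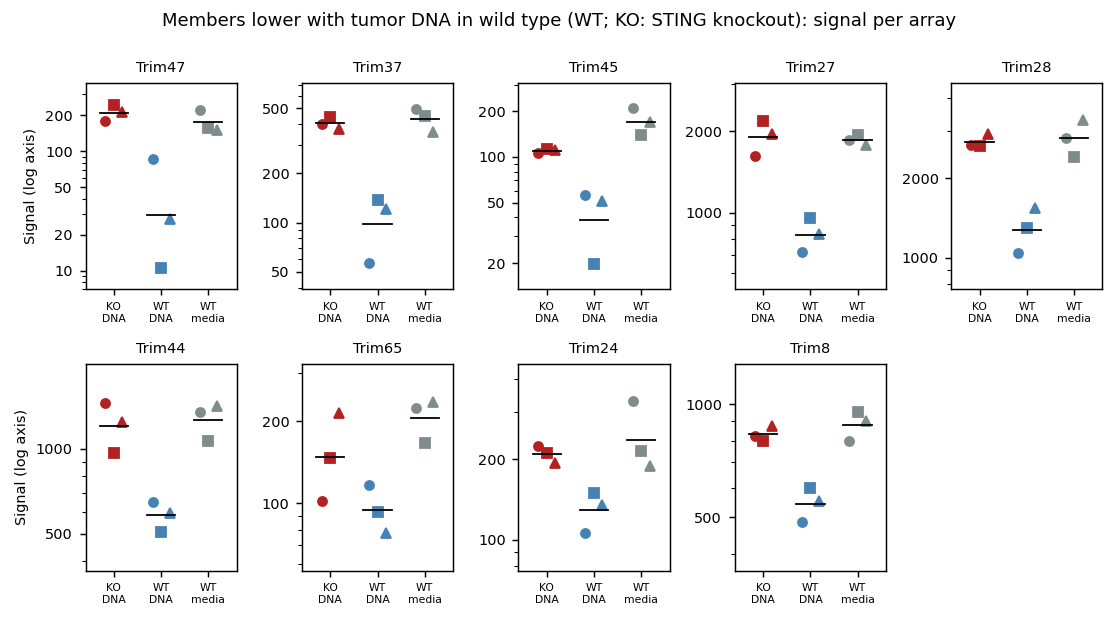
Signal per array (log axis) of the 9 TRIM genes called lower in WT tumor DNA (WT DNA, blue) than in WT media (grey), with STING tumor DNA (KO DNA) in red; circles, squares and triangles are arrays numbered 1, 2 and 3, and lines are means of the log2 values. The blue points lie below all grey points in every panel, and below all red points in every panel but that of Trim65.

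Trim11 and Trim16 were called higher in knockout than in wild-type cells given DNA without a call in the other comparisons. Trim16, which lacks a RING finger and takes part in the autophagy of damaged lysosomes, had signals of 231 to 283 in STING tumor DNA, 135 to 177 in WT tumor DNA and 109 to 178 in WT media samples, with a difference of 0.68 ± 0.22 under DNA (limma adjusted p = 0.0402). Trim11, a ligase of the PRY-SPRY class, had 442 to 481 in STING tumor DNA, 297 to 355 in WT tumor DNA and 423 to 464 in WT media samples, with 0.47 ± 0.15 (limma adjusted p = 0.0424). Leaving out any 1 of the 9 arrays ended the call of Trim11 (limma adjusted p 0.0522 to 0.113), and leaving out 6 of the 9, namely all 3 of STING tumor DNA, arrays 1 and 3 of WT tumor DNA and array 3 of WT media, ended that of Trim16 (limma adjusted p up to 0.128). With the added centring the differences were 0.07 for Trim11 and 0.28 for Trim16. A further Trim16 probe set differed by 1.17 in the knockout under DNA and by 0.88 against WT media. Its values did not overlap in either, and it was not tested by itself.

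Trim12a, by its leading probe set, and Trim5 read high in the knockout and low in wild-type cells with or without DNA. Both passed the filter only through the knockout group. Over both wild-type groups their mean log2 values were 4.54 for Trim12a and 4.94 for Trim5, under the threshold of 5.67. They had to differ to be tested, so their differences describe these arrays and support nothing further. Trim12a is a mouse relative of primate TRIM5, the protein that binds incoming retroviral capsids and blocks infection. Its leading probe set read 850, 281 and 340 in STING tumor DNA, 10.9, 14.5 and 2.18 in WT tumor DNA, and 2.18, 1.41 and 16.8 in WT media samples. All 6 wild-type values were thus at the low end of the scale, and all 3 knockout values were far above them. The difference was 4.19 ± 0.45 against WT tumor DNA (limma adjusted p = 0.000271) and 4.37 ± 0.45 against WT media (limma adjusted p = 0.00197).

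The size of that difference rests on the offset, being 2.79 against WT tumor DNA with an offset of 64. A second Trim12a probe set read 46.9, 68.2 and 48.0 in STING tumor DNA, 36.8, 51.0 and 44.8 in WT tumor DNA, and 22.6, 41.3 and 45.8 in WT media samples, a difference of 0.22 in the first comparison. With an offset of 1 the second probe set has the higher mean and stands for the gene, which gives 0.28 (limma adjusted p = 0.637) against WT tumor DNA and 0.60 (limma adjusted p = 0.841) against WT media.

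Trim5 had 1 probe set. Its signals were 553, 193 and 199 in STING tumor DNA, 33.6, 18.2 and 3.89 in WT tumor DNA, and 8.73, 10.4 and 22.0 in WT media samples. The knockout values were again above all 6 wild-type values, by 3.19 ± 0.47 against WT tumor DNA (limma adjusted p = 0.00106) and 3.33 ± 0.47 against WT media (limma adjusted p = 0.0153). The call against WT media ended with an offset of 1 (4.34, limma adjusted p = 0.0519) and when knockout array 3 or any WT media array was left out (limma adjusted p up to 0.0673).

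Trim34a, a PRY-SPRY member from the same chromosomal neighbourhood, gave opposite answers from its 2 probe sets. The leading one read 102, 21.9 and 80.2 in STING tumor DNA, 659, 711 and 562 in WT tumor DNA, and 359, 329 and 394 in WT media samples. It placed the knockout below wild-type cells by -3.12 ± 0.37 under DNA (limma adjusted p = 0.000378) and by -2.31 ± 0.37 against WT media (limma adjusted p = 0.0284). The call against WT media ended when any 1 of 7 arrays was left out, namely knockout array 3 and all 6 wild-type arrays (limma adjusted p up to 0.132), with an offset of 1 and with quantile normalization.

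The other Trim34a probe set read 2372, 544 and 774 in STING tumor DNA, 105, 67.9 and 86.2 in WT tumor DNA, and 27.0, 53.7 and 55.4 in WT media samples. There the knockout was higher by 3.33 and 4.09 (log2, not tested). Averaging both probe sets gave 0.11 (limma adjusted p = 0.861) under DNA and 0.89 (limma adjusted p = 0.63) against WT media, so no direction for the gene as a whole can be given.

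**Figure D4:**
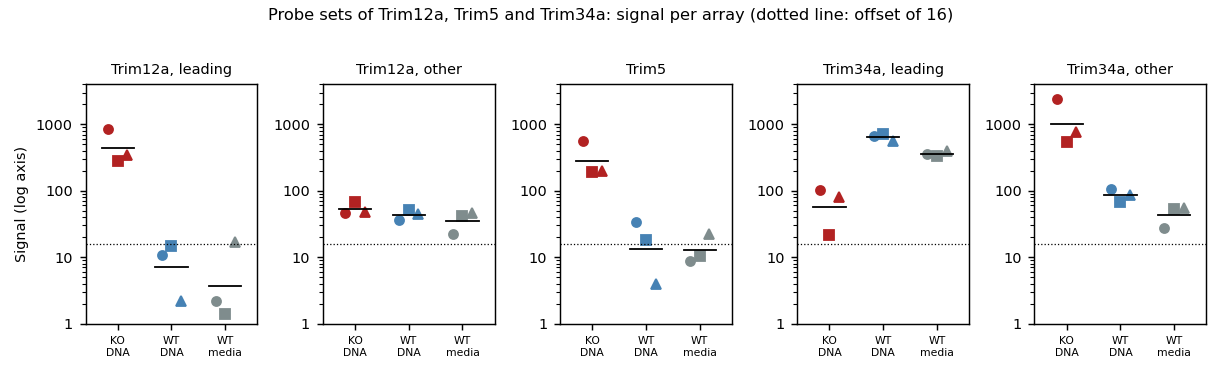
Signal per array (log axis) of each probe set of Trim12a, Trim5 and Trim34a in STING tumor DNA (KO DNA, red), WT tumor DNA (WT DNA, blue) and WT media (grey); circles, squares and triangles are arrays numbered 1, 2 and 3, lines are means of the log2 values, and the dotted line is the offset of 16. The leading Trim12a and the Trim5 probe sets are near or below the dotted line in wild-type cells, and the Trim34a probe sets move in opposite directions in the knockout.

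These members lie together. In the RefSeq gene order of mouse chromosome 7 (GRCm38.p6), a run holds Trim21, Trim68, Trim6, Trim34a, Trim5, Trim12a, Trim12c, Trim30a and Trim30d. All 9 were tested, and 7 of them were called between knockout and wild-type cells given DNA, 5 lower and 2 higher. That is 77.8%, beside 40% of the other 30 tested members and 31.5% of all genes. By direction, 55.6% were lower and 22.2% higher, beside 9.73% and 21.8% of all genes. Without Trim34a, whose probe sets oppose each other, 6 of 8 were called, 4 lower and 2 higher (75%). Without Trim5 and Trim12a as well, 4 of 6 were called, all lower (66.7%). In knockout cells given DNA against WT media, 3 of the 9 were called by limma, namely Trim5, Trim12a and Trim34a (33.3%, beside 0.429% of all genes). Without these, limma called 0 of the other 6, and Trim12c was lower at an unadjusted p below 0.05. Of the 30 members outside the run limma called 0, which is near the share of all genes. Of these 30, 1, Trim16, was higher at an unadjusted p below 0.05. The arrays' probe sets for these close relatives were taken as annotated, and which of the related transcripts each one read was not tested.

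Genes that are not TRIM members but lie in or beside this run were examined after these values were seen. Of 33 such tested genes, 4 in the run, 15 before it and 14 after it, none was called in limma between knockout cells given DNA and WT media, nor did any have an unadjusted p below 0.05, and their differences ran from -1.03 to 0.46 (log2). Since 0.429% of all genes were called there, a count of 0 of 33 is near that background. Under DNA, 5 of the 33 were called higher and 1 lower in the knockout, beside 21.8% and 9.73% of all genes, with differences of -2.78 to 1.40. With DNA in wild-type cells, 4 were called higher and 9 lower, beside 9.94% and 23.6% of all genes.

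**Figure D5:**
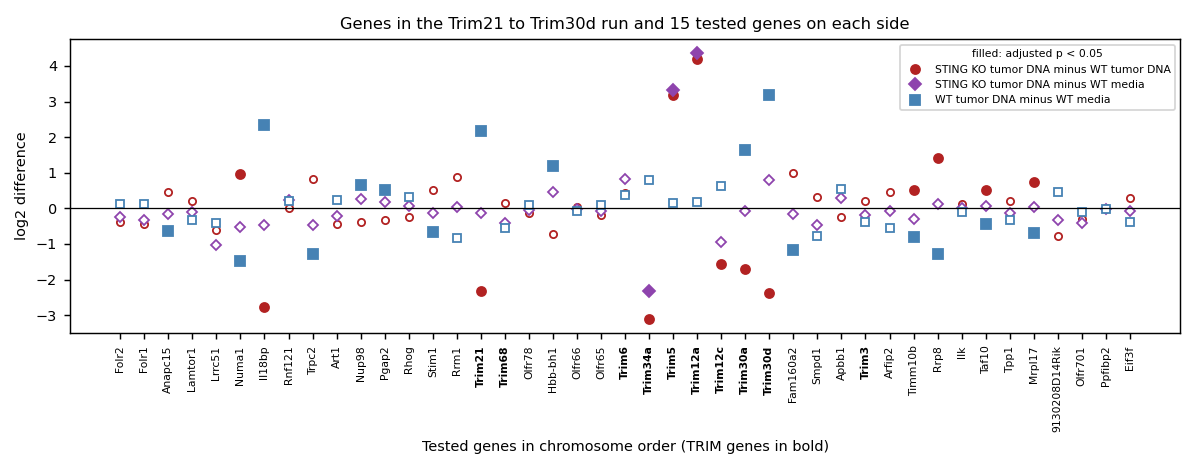
Differences (log2 of signal + 16) of TRIM genes (bold) and other tested genes in RefSeq order around the Trim21 to Trim30d run, for STING tumor DNA minus WT tumor DNA (red circles), STING tumor DNA minus WT media (purple diamonds) and WT tumor DNA minus WT media (blue squares); filled points have a limma adjusted p below 0.05. Trim5 and Trim12a stand above and Trim34a, by its leading probe set, below all 33 non-members in both comparisons of knockout cells. Trim5 and Trim12a passed the filter only through their knockout signals.

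The promoter windows of the 7 members of this run that hold the motif marked below are shown because some share stretches of sequence. That of Trim26, a member that rose with DNA on another chromosome, is shown with them. The sequences are RefSeq's for GRCm38.p6, 100 bases each, written from 5′ to 3′ along the gene's strand and taken 50 bases either side of the annotated start, or for Trim26 around the match upstream of the start. Capitals mark GAAA followed by any 2 bases and a second GAAA, or the same read on the opposite strand (TTTC, any 2 bases, TTTC), the core of the interferon-stimulated response element through which interferon signals reach many genes. Trim6 and Trim68, of the same run, have windows without it and are not shown.
Trim21 (chr7:102565433-102565532, minus strand): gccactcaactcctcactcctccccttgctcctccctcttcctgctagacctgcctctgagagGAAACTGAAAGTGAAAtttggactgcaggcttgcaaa
Trim34a (chr7:104244407-104244506, plus strand): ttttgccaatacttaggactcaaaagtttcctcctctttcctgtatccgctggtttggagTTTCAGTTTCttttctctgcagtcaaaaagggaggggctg
Trim5 (chr7:104288057-104288156, minus strand): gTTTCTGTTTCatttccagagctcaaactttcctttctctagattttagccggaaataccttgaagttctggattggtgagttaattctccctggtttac
Trim12a (chr7:104315446-104315545, minus strand): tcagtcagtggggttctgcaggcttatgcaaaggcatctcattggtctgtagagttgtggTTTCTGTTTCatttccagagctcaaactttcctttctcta
Trim12c (chr7:104353300-104353399, minus strand): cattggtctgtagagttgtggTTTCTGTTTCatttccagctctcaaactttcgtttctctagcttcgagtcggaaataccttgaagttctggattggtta
Trim30a (chr7:104465144-104465243, minus strand): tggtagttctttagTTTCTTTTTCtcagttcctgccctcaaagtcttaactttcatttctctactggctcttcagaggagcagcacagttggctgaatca
Trim30d (chr7:104507800-104507899, minus strand): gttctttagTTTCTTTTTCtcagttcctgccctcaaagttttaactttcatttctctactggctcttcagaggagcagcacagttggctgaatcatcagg
Trim26 (chr17:36836944-36837043, plus strand): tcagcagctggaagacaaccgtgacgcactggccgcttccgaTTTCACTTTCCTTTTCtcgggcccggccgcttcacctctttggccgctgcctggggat

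Both strands were searched over windows from 250 bases before to 50 bases after each start, and 47 of the 58 members had at least 1 window. The motif occurred in 9 of the 47 (19.1%), beside 3.99% of 27025 genes and 3.44% of all 32851 windows. It occurred in 6 of the 7 members with a window among those lower in the knockout under DNA, namely Trim12c, Trim21, Trim26, Trim30a, Trim30d and Trim34a, with Trim25 the member without a match. Without Trim34a, whose direction its probe sets do not settle, this is 5 of 6. Trim5 and Trim12a, which passed the filter only through their knockout signals, hold it too, and so does Trim2, which was not called. None of the 7 members with a window that fell with DNA holds it. A second motif, TTCNNNGAA, the gamma-activated sequence, reads the same on both strands, and it occurred in 4 of the 47 members (8.51%), Trim15, Trim31, Trim45 and Trim46, beside 9.55% of all genes. A match says only that these letters are in the window.

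Trim5 and Trim12a share an unbroken run of 241 bases that holds the motif, from windows that lie differently around their annotated starts. Trim30a and Trim30d share 118 bases, also with the motif, and were raised together by DNA in wild-type cells. Trim12c shares a run of 71 bases outside the motif, and one of 63 bases that holds it, with both Trim5 and Trim12a. Trim12c was called lower in the knockout under DNA, at -1.57. No contrast of direction is drawn with Trim5 and Trim12a, which passed the filter only through their knockout signals.

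Other members reported to act on DNA and RNA sensing were measured without a call in any comparison. Trim56, which ubiquitinates cGAS and STING, had signals of 527, 471 and 446 in STING tumor DNA, 453, 493 and 460 in WT tumor DNA, and 654, 476 and 597 in WT media samples. The groups overlapped, and the differences were -0.28 ± 0.17 with DNA (limma adjusted p = 0.235) and 0.04 ± 0.17 in the knockout under DNA (limma adjusted p = 0.891).

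Trim32, reported to ubiquitinate STING, had signals of 194, 262 and 195 in STING tumor DNA, 133, 180 and 229 in WT tumor DNA, and 270, 257 and 318 in WT media samples. Its difference with DNA was -0.62 ± 0.23, with a limma adjusted p of 0.0609, or 0.0355 with the replicate number as a block, and that in the knockout under DNA was 0.26 ± 0.23 (limma adjusted p = 0.423). Wild-type values with DNA lay below those in media without overlap.

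Trim13, a ligase anchored in the endoplasmic reticulum, had signals of 529, 661 and 855 in STING tumor DNA, 864, 664 and 730 in WT tumor DNA, and 379, 736 and 609 in WT media samples, with all groups overlapping and a difference of 0.42 ± 0.26 with DNA (limma adjusted p = 0.245). Trim23, which carries an ARF GTPase domain, had 473, 633 and 411 in STING tumor DNA, 312, 423 and 505 in WT tumor DNA, and 669, 742 and 433 in WT media samples. For Trim23 too the groups overlapped, with a difference of -0.54 ± 0.26 with DNA (limma adjusted p = 0.139). Trim6, a member of the chromosome 7 run, had 63.0, 79.4 and 68.5 in STING tumor DNA, 39.6, 21.0 and 109 in WT tumor DNA, and 38.6, 34.5 and 26.5 in WT media samples. Its knockout values lay above those in media, with a difference of 0.81 ± 0.41 (limma adjusted p = 0.723).

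The remaining uncalled members were Trim2, Trim3, Trim10, Trim29, Trim33, Trim35, Trim36, Trim39, Trim41, Trim46, Trim59, Trim62 and Trim68. Trim35 was the brightest of these, with signals of 3280 to 3740 in STING tumor DNA, 3236 to 3439 in WT tumor DNA and 3236 to 3939 in WT media samples, and differences of -0.13 ± 0.13 with DNA and 0.10 ± 0.13 in the knockout under DNA. Trim33, a relative of Trim24 and Trim28 that acts on SMAD signalling, had 1063 to 1126 in STING tumor DNA, 857 to 934 in WT tumor DNA and 811 to 1104 in WT media samples. Unlike Trim24 and Trim28 it was not called lower with DNA, at -0.09 ± 0.15 (limma adjusted p = 0.683), and a test of the difference between these genes was not made.

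The 19 members that did not pass the filter were Trim7, Trim9, Trim15, Trim17, Trim31, Trim40, Trim42, Trim43a, Trim54, Trim60, Trim61, Trim63, Trim66, Trim67, Trim69, Trim71, Trim72, Trim75 and Trim80. Their signals ran from 1.13 to 79.5 over the 9 arrays. They include Trim54, Trim63 and Trim72, known from muscle, and Trim9 and Trim67, known from neurons. Trim7, a ligase of the PRY-SPRY class, had signals of 51.1, 30.3 and 54.6 in STING tumor DNA, 4.21, 6.15 and 2.43 in WT tumor DNA, and 68.8, 40.3 and 23.8 in WT media samples. It was not tested, and it differed by -1.51 with DNA and by 1.58 in the knockout under DNA, with no overlap in either. Further Trim7 probe sets gave -0.75 and -0.42 with DNA, and 1.07 and 0.36 in the knockout, of which only the 1.07 was without overlap.

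Genes around the family moved as follows. Of 23 tested genes of the sensing relay and of interferon signalling, on which TRIM ligases act or which act on TRIM genes, 10 were called higher and 3 lower in WT tumor DNA than in WT media, and 2 higher and 12 lower in STING tumor DNA than in WT tumor DNA. That is 43.5% higher and 13% lower with DNA, beside 9.94% and 23.6% of all genes, and 8.7% higher and 52.2% lower in the knockout under DNA, beside 21.8% and 9.73%. The 12 include Sting1, the gene targeted in the knockout, whose lower signal was set by the design. Against WT media, none of the 23 was called by limma in the knockout cells given DNA, beside 0.429% of all genes, and 7, Sting1 among them, were lower at an unadjusted p below 0.05. Ifnb1, which encodes interferon beta, had signals of 43.3, 62.5 and 48.8 in STING tumor DNA, 21593, 5213 and 10275 in WT tumor DNA, and 50.2, 47.3 and 72.4 in WT media samples. The knockout and media values overlapped, far below those of wild-type cells given DNA, with a difference of -7.29 ± 0.42 under DNA (limma adjusted p = 1.48e-05).

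A further list held genes with a TRIM alias or a domain in common with TRIM proteins. Of its 6 tested genes, Pml and Dtx3 were called with DNA and in the knockout under DNA. That is 33.3% in each, beside 33.6% and 31.5% of all genes. Pml, the founding protein of PML nuclear bodies and also known as TRIM19, had signals of 501, 193 and 178 in STING tumor DNA, 2453, 2343 and 2002 in WT tumor DNA, and 560, 632 and 594 in WT media samples. It rose with DNA by 1.90 ± 0.33 (limma adjusted p = 0.00248) and was lower in the knockout under DNA by -3.05 ± 0.33 (limma adjusted p = 0.000264). Dtx3, whose relation to the family was not examined, ran the other way, at -0.87 ± 0.19 with DNA and 1.20 ± 0.19 in the knockout under DNA (limma adjusted p = 0.00755 and 0.00157).

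Single markers of other cells were called in some comparisons. The lists are short, and the share of all genes called in the same direction is given beside each call. Summed signals of 3 mast cell markers were 93.7 to 140 in STING tumor DNA, 256 to 575 in WT tumor DNA and 164 to 392 in WT media samples, with Mcpt4 and Tpsb2 below the filter. The only tested mast cell marker, Cpa3, was called lower in the knockout under DNA, beside 9.73% of all genes called lower there. Among 4 macrophage markers, Mertk was called lower there (-1.65 ± 0.54, limma adjusted p = 0.0424), which is 25% beside 9.73% of all genes called lower. The other 3, Mrc1, Adgre1 and Csf1r, were not called there, at 1.46, 0.41 and -0.15. Among 3 muscle markers, Acta1 was called higher with DNA in wild-type cells (1.19 ± 0.27, limma adjusted p = 0.00881), which is 33.3% beside 9.94% of all genes. Ckm and Des were not called, at 0.10 and -0.45. Of the 6 tested dendritic cell markers, Cd86 and Ccr7 were called higher with DNA (2.62 and 1.20, limma adjusted p = 0.000193 and 0.0189), which is 33.3% beside 9.94% of all genes. Cd86 was called lower in knockout than in wild-type cells given DNA (-1.84, limma adjusted p = 0.000522), which is 16.7% beside 9.73% of all genes. Sums of 2 measured B cell markers were 68.0 to 191 in STING tumor DNA, 193 to 1730 in WT tumor DNA and 115 to 730 in WT media samples, and neither was called there or had an unadjusted p below 0.05. Sums of 5 neutrophil markers were 32787 to 36790 in STING tumor DNA, 21716 to 69042 in WT tumor DNA and 15372 to 55337 in WT media samples. Of the 5, 1, Mpo, was called lower in the knockout under DNA (-1.08 ± 0.35, limma adjusted p = 0.0401), which is 20% beside 9.73% of all genes. The fibroblast markers Col1a1 and Col3a1 were not called in any comparison, at 1.26 and 0.92 in the knockout under DNA. The part of such cells in the differences of TRIM genes was not tested.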

How the data were processed

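The deposited values are MAS5 signal intensities on a linear scale, per the submitters' processing notes. For MAS5 no version is given in the sources used here, nor is a genome build for the array. A common scaling of the arrays shows in the deposited intensities, with trimmed means of 496 to 497 on all 9. Probe sets were named from the platform annotation where it gives 1 symbol, and 5 probe sets that pair a Trim symbol with others were not used. Signals were taken as log2(signal + 16). Of 45101 probe sets, 64 controls were removed, and those with a mean above the 40th percentile (5.67) were kept. Each gene was represented by its brightest probe set on average. The model, fitted with limma 3.58.1 under R 4.3.3 (lmFit, eBayes with an intensity trend), held all 9 arrays in 3 groups; tests were 2-sided, with Benjamini-Hochberg adjustment over 12586 genes. Fold changes on this scale understate the change of low genes.

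Full values are given for the 10 called members with the largest change in each comparison with DNA, for those called against WT media, and for members reported to act in sensing or retroviral restriction; every called member is named, and the others appear as ranges. The members, lists and motifs were chosen with earlier results of these data known. Replicate numbers come from the sample titles, and residuals of same-numbered arrays correlated at 0.17 to 0.49 over 9 pairs (-0.42 to 0.14 for others), so results that change call in a fit blocked by number are given both ways. On simulated data with 100 genes changed by a log2 of 1 and 100 by 2, the test found 28 and 85 of them for WT tumor DNA against WT media, 37 and 82 for STING tumor DNA against WT tumor DNA, and 32 and 79 for STING tumor DNA against WT media. Only those genes were changed in the simulation, and its noise was drawn independently for each array. In the data, 33.6% and 31.5% of genes were called in the 2 comparisons with WT tumor DNA, and same-numbered arrays correlated. The recovery found there therefore need not hold for these data. The number of arrays limits the precision.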

Additional observations from a re-analysis of the deposited data

How the results depend on the processing

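Of 37 calls of a TRIM gene in a comparison, 11 held under all 22 settings run, and 2 more (Trim45 with DNA and Trim5 in the knockout under DNA) under the 21 in which they were tested, as neither passes the filter at the 60th percentile (offset, normalization, centring, filter, probe set rule, intensity trend, replicate block and arrays left out), and 22, these 13 included, held where tested under every setting other than leaving out arrays. Leaving out 1 array ended the calls of 4 of 15 members for WT tumor DNA against WT media (Trim14, Trim24, Trim25 and Trim65), 4 of 19 for STING tumor DNA against WT tumor DNA (Trim8, Trim11, Trim16 and Trim25) and 2 of 3 for STING tumor DNA against WT media (Trim5 and Trim34a). For Trim34a the mean of its probe sets turned the sign, to 0.11 under DNA and 0.89 against WT media.

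In STING tumor DNA against WT media, the members called higher numbered 0 with an offset of 1 and with the filter at the 60th percentile, which Trim5 and Trim12a do not pass, and both higher and lower numbered 0 without Trim5, Trim12a and Trim34a, a choice made after seeing the data. Those called lower numbered 0 with an offset of 1, with quantile normalization and with the mean of probe sets. With the replicate block, 86 of all genes were called higher and 90 lower in that comparison, and Sting1 was called at -1.72 (limma adjusted p = 0.0319). For WT tumor DNA against WT media the block gave 7 members higher and 10 lower, beside 1663 and 3971 of all genes. For STING tumor DNA against WT tumor DNA it gave 11 higher and 8 lower, beside 3769 and 1638 of all genes. Without the block, all genes numbered 1251 and 2973 in the first and 2746 and 1224 in the second. The block thus raised the counts of all genes more than those of members. The block changed no other call of a member than those of Trim12c and Trim32 with DNA. Centring on the median of the genes tested, chosen after seeing the data, moved the median gene to 0.24 with DNA and to -0.20 in the knockout under DNA. It gave 2759 genes higher and 1080 lower with DNA, 1092 higher and 2492 lower in the knockout under DNA, and 6 TRIM members higher there.

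With 1 array or all arrays of a number left out, members called with DNA numbered 3 to 7 higher and 4 to 10 lower, those in the knockout under DNA 5 to 11 higher and 3 to 8 lower, and those in the knockout against WT media 0 to 2 higher and 0 to 2 lower. Over the same fits, all genes called numbered 479 to 1280 higher and 1013 to 2927 lower with DNA, 850 to 2704 higher and 529 to 1245 lower in the knockout under DNA, and 1 to 39 higher and 3 to 92 lower against WT media. The Sting1 difference was 0.12 to 0.74 with DNA, -2.45 to -1.70 under DNA and -2.10 to -1.30 against WT media. In both comparisons with WT tumor DNA, the fewest members were called without the arrays numbered 3. Signals near the offset of 16, as for Trim5 and Trim12a in wild-type cells, limit the sizes given.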
